A study of Drosophila melanogaster with 6 samples.

Results

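The 10 genes described here encode gustatory receptors (Gr), the taste receptors of Drosophila melanogaster. They were taken by name, as Gr43a, Gr5a, Gr61a, Gr64f, Gr32a, Gr33a, Gr39a, Gr66a, Gr28a and Gr68a, each of which matched 1 row among the 17698 gene rows of the count files. They are 10 of 60 Gr genes with a row. All 6 libraries were made from whole antennae of females kept at 25 °C, each from 1 pooled collection of about 350 flies, and the age of the flies is not given in the sources used here. The 3 control libraries came from peb-Gal4/+;Or49a-GFP/+ flies and the 3 libraries with programmed cell death (PCD) blocked from peb-Gal4/+;Or49a-GFP/UAS-p35 flies, and each control library had a PCD-blocked partner, giving 3 sample pairs. Both groups therefore carried the peb-Gal4 driver and the Or49a-GFP reporter. Their stated genotypes differed by the UAS transgene for p35, a baculoviral protein that inhibits caspases. Blocked PCD cannot be told apart here from other differences that came with this transgene, such as its marker gene or chromosome. p35 is expected only in cells in which the peb driver is, or has been, active, and a whole-antenna library mixes those cells with all others.

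Gustatory receptors are membrane proteins that form ligand-gated ion channels and are related to the odorant receptors. In taste neurons of the proboscis, legs and pharynx, sugar receptors and bitter receptors mark separate cells, and several receptors are expressed in 1 neuron and act together. The antenna is an olfactory, hygrosensory, thermosensory and auditory organ, in which the carbon dioxide receptors Gr21a and Gr63a and the heat receptor Gr28b are the better known members of the family. During antennal development PCD removes some of the cells of sensory lineages. In a library made from the whole organ, a change in the number of cells that express a gene and a change in RNA per cell cannot be told apart.

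Blocking PCD was accompanied by higher transcript levels of the fructose receptor Gr43a and of the bitter receptors Gr33a, Gr39a and Gr32a. Gr43a was 11.8-fold higher (95% interval 8.72 to 16.1), Gr33a 5.77-fold (2.87 to 11.6), Gr39a 5.71-fold (2.52 to 13) and Gr32a 2.81-fold (1.55 to 5.08), from control levels of 0.770 CPM (counts per 1000000 counts of the scaled library total) or less. The most abundant member, the sugar co-receptor Gr64f, and the bitter co-receptor Gr66a did not pass the test, and neither did Gr61a. Gr5a, Gr28a and Gr68a had 7, 6 and 0 counts over all 6 libraries and were not tested, so for these few reads or none were counted. In all, 4 of the 10 receptors were called higher and 0 lower (edgeR quasi-likelihood test with the sample pair as a block, Benjamini-Hochberg adjusted p under 0.05), where 14.3% of all 9181 tested genes were called higher and 13.3% lower, 1314 and 1225 genes. Without the expression filter the counts of receptors were again 4 and 0, with 9.52% of genes called higher. With plain library totals in place of TMM scaling the split of all genes was 1704 higher and 980 lower, with DESeq2 653 and 662 and without pair 2 753 and 728. DESeq2, which called 7.11% of genes higher, called 1 of the 10 receptors, Gr43a. When genes had to reach 1 CPM in 3 libraries, 2 were called, Gr43a and Gr32a, beside 14.7% of genes, and without pair 2 Gr43a, Gr33a and Gr39a were called, beside 8.18% of genes.

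The filter on low counts asked for about 0.574 CPM, the value of 10 counts in a library of median size, in 3 libraries. Of the 10 receptors 7 passed it. Gr33a and Gr39a reached that level in 0 of 3 control libraries and in 3 of 3 PCD-blocked ones, and Gr32a in 2 and 3, so Gr33a and Gr39a entered the test only through the group in which they were higher. For this reason the number of calls among the receptors tested is a description and not evidence about the family.

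**Figure D1:**
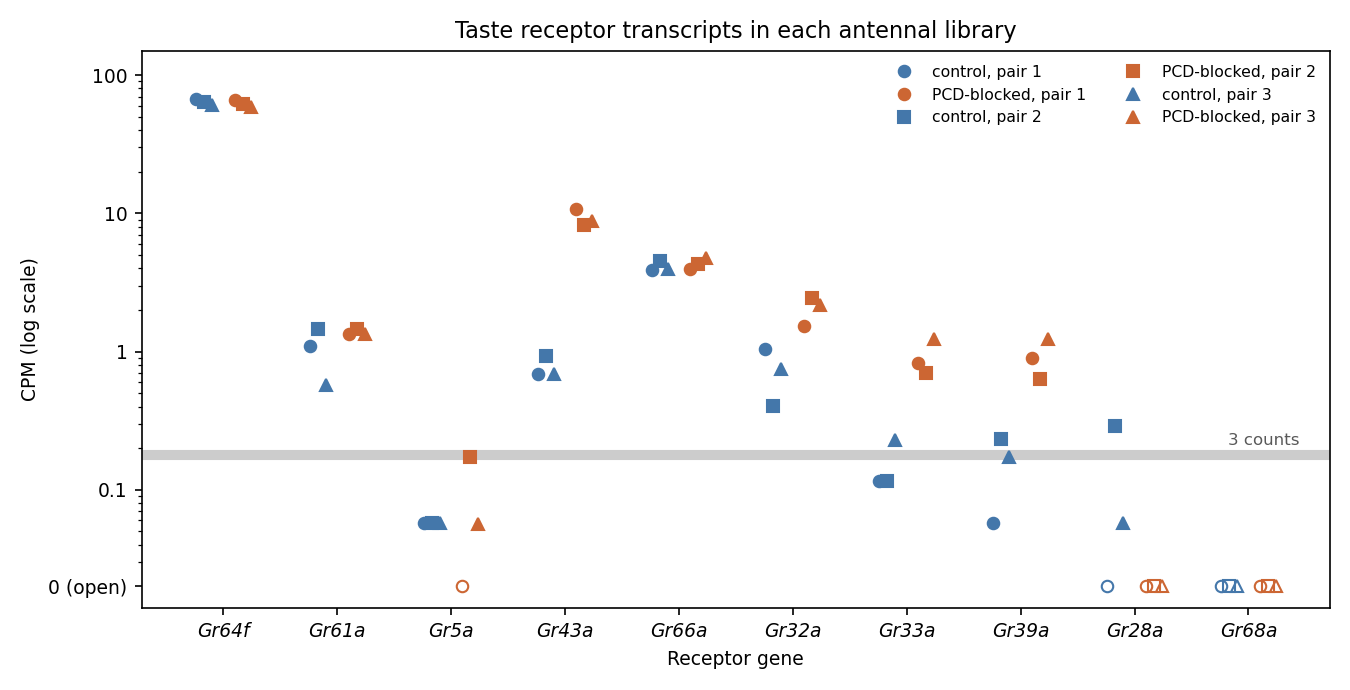
CPM of each receptor gene (log axis) in the 3 control (blue) and 3 PCD-blocked (orange) libraries, with 1 marker shape per sample pair, open markers for 0 counts and a grey band at the level of 3 counts. The groups separate for Gr43a, Gr32a, Gr33a and Gr39a, overlap for Gr64f, Gr61a and Gr66a, and lie at or near 0 for Gr5a, Gr28a and Gr68a. Of all tested genes, 19.9% had every PCD-blocked library above every control library. Gr33a and Gr39a passed the expression filter only through the PCD-blocked libraries.

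Gr43a (FBgn0041243) lies on chromosome 2R at 7390869 to 7393161, on the minus strand, and encodes a receptor tuned to fructose that serves in taste neurons and as an internal nutrient sensor in the brain. Its raw counts were 12, 16 and 12 in control libraries 1 to 3 and 168, 142 and 156 in PCD-blocked libraries 1 to 3. These are 0.691, 0.925 and 0.693 CPM against 10.7, 8.22 and 8.76 CPM. Every PCD-blocked library was above every control library, as it was for 19.9% of all tested genes. The log2 fold change was 3.57 with a standard error (SE) of 0.19 and an adjusted p = 4.94e-06 in edgeR's quasi-likelihood test. Within pairs, the ratio of PCD-blocked to control was 15.5 (exact 95% binomial interval 8.64 to 30.6) in pair 1, 8.88 (5.28 to 16) in pair 2 and 12.6 (7.03 to 25.0) in pair 3. The intervals of the 3 pairs overlap each other. Such intervals cover counting error only.

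Reads at the Gr43a locus can be shared with Dhx15, a gene for an RNA helicase on the opposite strand, whose exons overlap those of Gr43a over 155 bases. Dhx15 measured 65.6 ± 2.27 CPM in controls against 63.5 ± 0.570 with PCD blocked (SD, n = 3), which did not pass (edgeR adjusted p = 0.406). The flanking genes cos, which encodes Costal-2 of Hedgehog signalling, and Glo1, a glyoxalase gene, had log2 fold changes of 0.17 and -0.16 and did not pass either (edgeR adjusted p = 0.122 and 0.0566). Gr43a has 3 annotated transcripts with 1 shared start, and gene counts do not separate them.

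The bitter receptors Gr32a, Gr33a, Gr39a and Gr66a are expressed together in most bitter taste neurons, where they act as shared subunits. Gr66a, the standard marker of those neurons (FBgn0035870, chromosome 3L, 8305336 to 8306980), had 68, 78 and 69 counts in the control libraries and 62, 74 and 85 in the PCD-blocked ones. Its level was 4.14 ± 0.326 CPM in controls against 4.33 ± 0.414 with PCD blocked (SD, n = 3), and the groups overlap. The log2 fold change was 0.07, with a 95% interval of -0.28 to 0.42 (edgeR adjusted p = 0.789), so a change of more than 1.34-fold upward lies outside the interval. Without pair 3 its log2 fold change was -0.03.

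Gr33a (FBgn0032416, chromosome 2L, 12138008 to 12140392), a bitter co-receptor that also takes part in the inhibition of male courtship towards males, had 2, 2 and 4 counts in the control libraries and 13, 12 and 22 in the PCD-blocked ones. The groups do not overlap, with PCD-blocked above control as for 19.9% of all tested genes, and the 8 control counts are few. The level went from 0.154 ± 0.0668 to 0.919 ± 0.282 CPM, a log2 fold change of 2.53 ± 0.44 (SE, edgeR adjusted p = 0.00302). The ratios were 7.2, 6.0 and 5.35 in pairs 1, 2 and 3, all with intervals above 1, the lowest bound being 1.34. DESeq2 did not call the gene (adjusted p = 0.0639), and over the 9 alternatives in which it was tested the adjusted p ran from 0.00207 to 0.0639.

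Gr39a (FBgn0264556, chromosome 2L, 21290734 to 21297686) is a bitter receptor gene with a part in courtship, and its 4 annotated transcripts begin at 4 different first exons. It had 1, 4 and 3 counts in the control libraries and 14, 11 and 22 in the PCD-blocked ones. The pooled counts of 8 and 47 equal those of Gr33a. The groups do not overlap, with PCD-blocked above control as for 19.9% of all tested genes. The log2 fold change was 2.51 ± 0.52 (SE, edgeR adjusted p = 0.00708). The ratio in pair 1 rests on 1 control count, 15.5 with an interval of 2.36 to 655, and the ratio in pair 2 of 2.75 has an interval, 0.815 to 11.9, that includes 1. In pair 3 the ratio was 7.13 (2.14 to 37.2). DESeq2 gave an adjusted p = 0.0681, and the range over 9 alternatives was 0.00505 to 0.0681. Which of the 4 transcripts was present cannot be read from counts per gene. The gene Mondo lies within the span of Gr39a on the opposite strand and shares none of its exon bases.

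Gr32a (FBgn0041246, chromosome 2L, 11114014 to 11115823), a bitter co-receptor that in male legs also responds to cuticular hydrocarbons, had 18, 7 and 13 counts in the control libraries and 24, 42 and 39 in the PCD-blocked ones. In CPM these were 1.04, 0.405 and 0.751 against 1.53, 2.43 and 2.19. The groups do not overlap, with PCD-blocked above control as for 19.9% of all tested genes, but control 1 and PCD-blocked 1 lie close together. The ratio was 1.48 (0.768 to 2.89) in pair 1, 6.0 (2.67 to 15.8) in pair 2 and 2.92 (1.52 to 5.96) in pair 3, so pair 1 taken by itself did not show a difference beyond counting error. The log2 fold change was 1.49 ± 0.37 (SE, edgeR adjusted p = 0.0178). The call was lost without pair 2 (1.05, adjusted p = 0.133), without pair 3 (1.46, adjusted p = 0.0529) and with DESeq2 (adjusted p = 0.0863), while the 10 alternatives spanned 0.00715 to 0.133. Exons of CG6230 overlap those of Gr32a on the opposite strand over 164 bases, and CG6230 did not pass, with a log2 fold change of -0.10 (edgeR adjusted p = 0.0650).

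**Figure D2:**
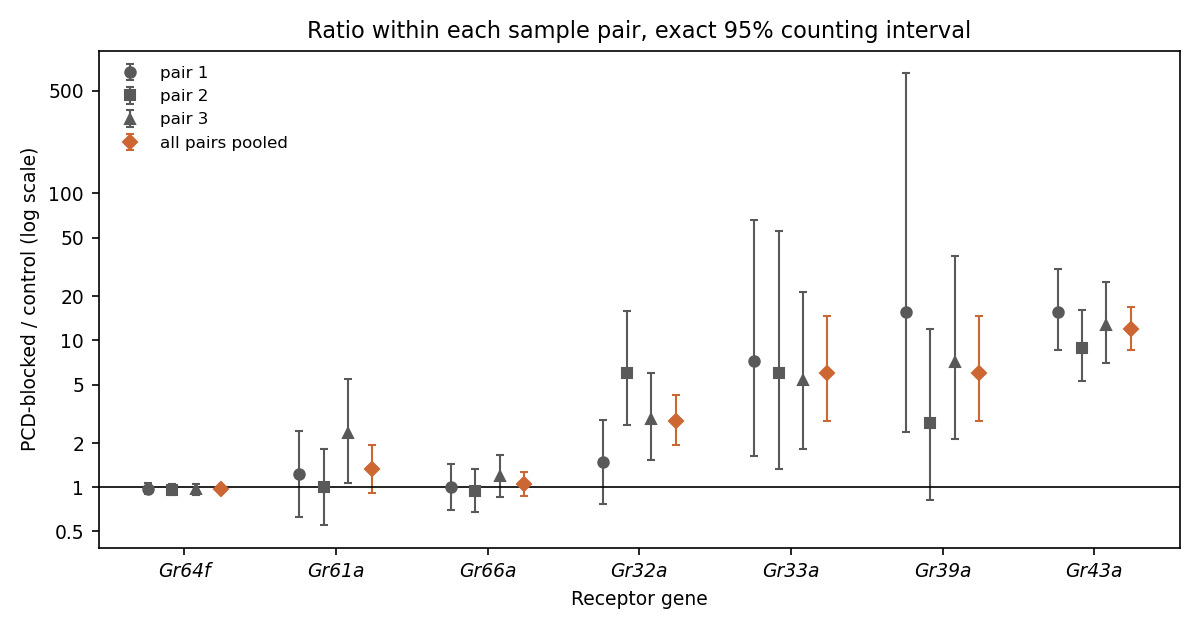
Ratio of PCD-blocked to control (log axis) for the 7 receptors that passed the expression filter, in each sample pair (grey) and over pooled counts (orange), with exact 95% binomial intervals. All 3 pair intervals lie above 1 for Gr43a and Gr33a, 2 of 3 for Gr32a and Gr39a, 1 of 3 for Gr61a and 0 of 3 for Gr64f and Gr66a.

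The sugar receptors differed widely in level, and none of those tested passed. Gr64f (FBgn0052255, chromosome 3L, 4035799 to 4037575), a co-receptor needed for the response to most sugars in taste neurons, had 1168, 1106 and 1046 counts in the control libraries and 1034, 1066 and 1040 in the PCD-blocked ones. That is 63.9 ± 3.40 CPM and 62.0 ± 3.75 CPM (SD, n = 3), with overlapping groups. The log2 fold change was -0.04 with a 95% interval of -0.13 to 0.04 (edgeR adjusted p = 0.446). As a fold, that interval is 0.914 to 1.03. Exons of CG11593 overlap Gr64f on the opposite strand over 53 bases, and that gene was higher, by 0.20 (log2) at 78.4 CPM (edgeR adjusted p = 0.00581).

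Gr61a (FBgn0035167, chromosome 3L, 841451 to 843701), a receptor for glucose, had 19, 25 and 10 counts in the control libraries and 21, 25 and 24 in the PCD-blocked ones. The libraries overlap, with control 3 the low one. Its log2 fold change was 0.45 with a 95% interval of -0.28 to 1.17 (edgeR adjusted p = 0.345), which leaves room for a rise of up to 2.25-fold. The ratio was 1.22 in pair 1, 1.00 in pair 2 and 2.33 in pair 3, where the interval was 1.08 to 5.47.

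Gr5a (FBgn0003747, chromosome X, 5680617 to 5682488), the trehalose receptor and a common marker of sugar taste neurons, had 1, 1 and 1 counts in the control libraries and 0, 3 and 1 in the PCD-blocked ones. The pooled ratio was 1.37 with an interval of 0.231 to 9.32, so neither a rise nor a fall of several fold was detectable at this depth. The antisense gene asRNA:CR44958, which covers 1108 exon bases of Gr5a, had 2 and 3 counts in the groups. With that overlap and an unknown strand setting in the counting, reads of either gene may have been set aside as ambiguous.

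Gr28a (FBgn0041247, chromosome 2L, 7452520 to 7454212), a member of the Gr28 group that mediates the taste of ribonucleosides in larvae, had 0, 5 and 1 counts in the control libraries and 0 counts in each PCD-blocked library. A count of 0 over the PCD-blocked libraries allows up to 0.0591 CPM when taken to allow 3 counts, and up to 0.0726 CPM by an exact Poisson interval. The control level was 0.115 CPM (exact Poisson interval 0.0424 to 0.251). The pooled ratio of PCD-blocked to control had an exact binomial interval of 0 to 0.869, which covers counting error only. Of the 6 counts, 5 came from control 2. Without an expression filter the gene did not pass (edgeR adjusted p = 0.279). Gr68a (FBgn0041231, chromosome 3L, 11751305 to 11752474), known from taste bristles of male forelegs and courtship, had 0 counts in all 6 libraries, which allows up to 0.0292 CPM over them. Gr68a was therefore not detected at this depth, and Gr28a had counts in 2 of 6 libraries, so not all of the 10 receptors can be called detected in these antennae.

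Levels of different genes were set side by side as CPM per kilobase of merged exons. In controls Gr64f stood first with 44.2 ± 2.35 CPM per kilobase (SD, n = 3) and Gr66a came next with 2.61 ± 0.206. Gr61a (0.556), Gr43a (0.504) and Gr32a (0.45) followed with overlapping ranges, so their order is not resolved. Among Gr33a (0.0942), Gr28a (0.0816), Gr39a (0.0405) and Gr5a (0.0387), neighbours in that order also overlapped, and Gr68a was at 0. In PCD-blocked antennae Gr64f was again first, with 42.9 ± 2.59, and Gr43a was next with 6.04 ± 0.856, above Gr66a with 2.74 ± 0.261 and with no overlap of their ranges. Gr32a (1.26) held the fourth place, Gr61a (0.737) and Gr33a (0.563) overlapped, and Gr39a (0.242) was below them. The 3807 merged exon bases of Gr39a add up 4 alternative first exons, against 1634 bases for Gr33a, which lowers its level per kilobase. Before division by length, Gr39a and Gr33a had 0.921 and 0.919 CPM with PCD blocked, so the place of Gr39a below Gr33a is not resolved. Gr43a was thus below Gr66a in controls and above it with PCD blocked, in level per length.

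**Figure D3:**
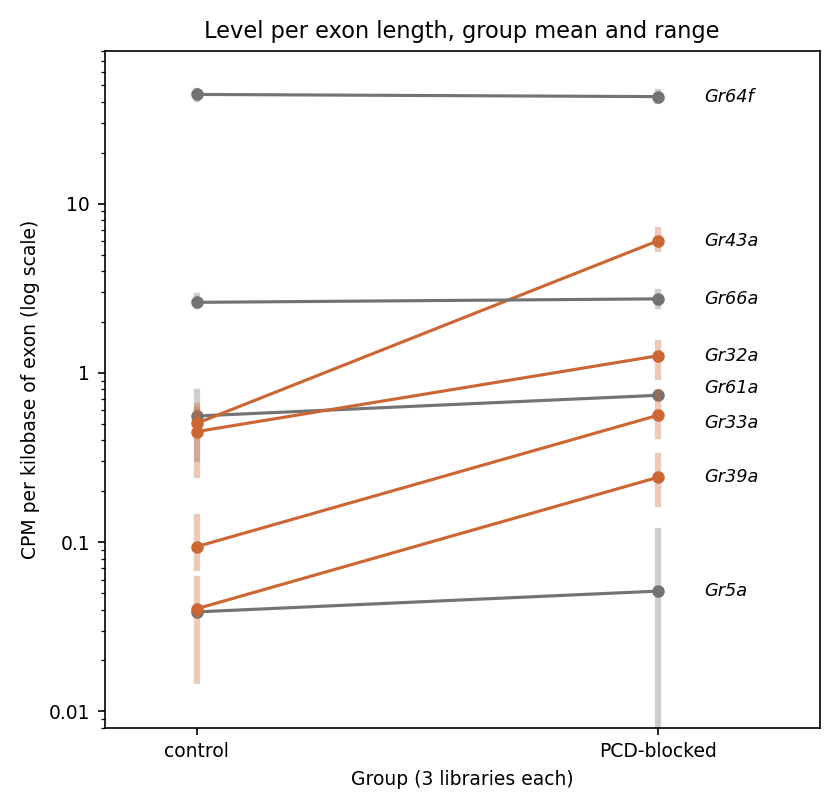
Mean CPM per kilobase of exon (log axis) of the 8 receptors with counts in both groups, with shaded bars for the range over the 3 libraries of each group, and orange for genes called higher. The line of Gr43a, from 0.504 to 6.04, crosses that of Gr66a, while the lines of Gr64f and Gr66a are nearly level. The exon length of Gr39a merges 4 alternative first exons.

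Summed over the 10 receptors, the libraries held 1159 to 1289 counts in controls and 1336 to 1389 in PCD-blocked antennae. Gr64f made up 89.9% ± 0.896 of these counts in controls against 76.6% ± 1.5 with PCD blocked (SD, n = 3). Leaving out Gr64f, the other receptors summed to 6.53 to 7.98 CPM in controls and 17.9 to 19.6 CPM in PCD-blocked antennae, and Gr43a was 10.7% ± 0.840 and 48.8% ± 5.98 of their counts. The risen receptors did not share a highest library: among PCD-blocked libraries Gr43a was highest in library 1, Gr32a in library 2, and Gr33a and Gr39a in library 3.

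The other 50 Gr genes were examined with the same fit. Of these 8 were tested, and 3 were higher and 2 lower, beside 14.3% and 13.3% of all tested genes. The 3 risen genes were Gr98d, Gr98b and Gr93a. Gr93a (chromosome 3R, 21832503 to 21834013), a co-receptor for the bitter compound caffeine, had 98, 86 and 67 counts in controls and 148, 131 and 149 in PCD-blocked libraries. In CPM its groups did not overlap, with PCD-blocked above control as for 19.9% of all tested genes. It rose by 0.81 ± 0.13 (log2, SE) to 8.46 ± 0.927 CPM (edgeR adjusted p = 0.00214), and remained past the threshold in all 10 alternatives, with a highest adjusted p = 0.0224.

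Gr98d (chromosome 3R, 27546052 to 27547462) had 2, 1 and 3 counts in controls and 25, 22 and 20 with PCD blocked, a log2 fold change of 3.44 ± 0.46 (SE, edgeR adjusted p = 0.000713), and was called in all 10 alternatives. Its neighbour Gr98b (27542497 to 27543888), which in taste neurons contributes to the detection of L-canavanine, had 9, 3 and 2 counts against 13, 25 and 20. The log2 fold change of Gr98b was 2.07 ± 0.53 (SE, edgeR adjusted p = 0.0191), a call lost without pair 2 (adjusted p = 0.154), without pair 3 (0.0681) and with DESeq2 (0.0798), with 0.00521 as the lowest value over 9 alternatives. Like Gr33a and Gr39a, Gr98d and Gr98b reached the level of the filter in 0 of 3 control libraries and in 3 of 3 PCD-blocked ones, so they too entered the test only through the group in which they were higher. Between them lies Gr98c, which was not tested and had 8 control counts and 27 with PCD blocked (ratio 3.45, exact interval 1.53 to 8.80). Also untested were Gr93d, with 4 and 32 counts (ratio 8.19, interval 2.90 to 31.9), and Gr10b, with 4 and 23 counts (ratio 5.88, interval 2.01 to 23.4). These 3 were chosen after their values were seen. Of the 42 untested Gr genes outside the 10 receptors, 23 were at 0 in all libraries, 14 had a higher pooled CPM in PCD-blocked libraries and 5 in controls, among them Gr93c with 9 and 3 counts and Gr94a with 13 and 10. Among the 14 were Gr2a, with 4 and 4 counts, and genes with as few as the 0 and 1 of Gr36c. The interval of the ratio lay above 1 for Gr98c, Gr93d and Gr10b and below 1 for 0 of the 19 with counts. Among the 10 receptors, untested Gr28a had an interval below 1 (0 to 0.869). The same split was not taken over all untested genes, so it is a description and not evidence about the family. Gr93d shares 1009 exon bases with asRNA:CR44087 on the opposite strand.

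The carbon dioxide receptor genes went the other way. The log2 fold change of Gr21a was -0.53 (95% interval -0.64 to -0.42) and that of Gr63a -0.31 (-0.40 to -0.22), with edgeR adjusted p = 8.06e-05 and 0.000525. Gr28b, of the same gene group as Gr28a and next to it on chromosome 2L, stood at 10.02 ± 0.850 CPM in controls against 10.9 ± 1.14 with PCD blocked, and it did not pass (log2 interval -0.10 to 0.33, edgeR adjusted p = 0.430).

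**Figure D4:**
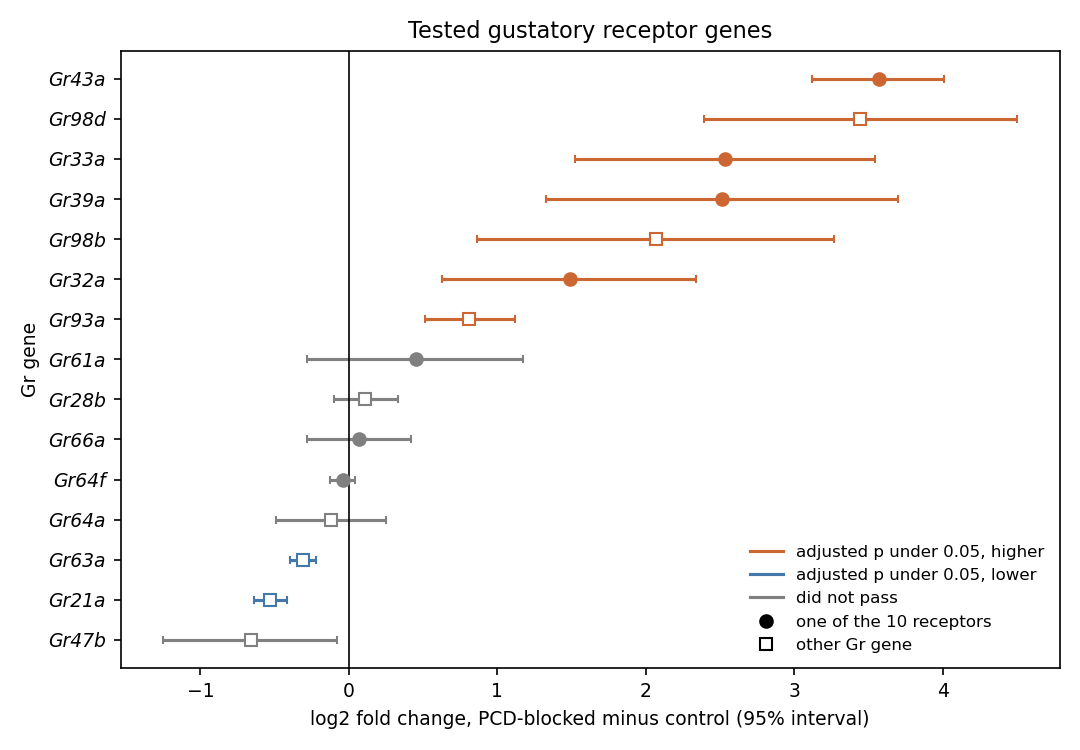
Log2 fold change of the 15 tested Gr genes, PCD-blocked minus control, with 95% intervals from the edgeR fit. Filled circles are the receptors described here and open squares other Gr genes. Of the 15, 7 were called higher (orange), 2 lower (blue), and 6 did not pass (grey). Beside these stand 14.3% of all tested genes called higher and 13.3% lower. Gr33a, Gr39a, Gr98b and Gr98d passed the expression filter only through the PCD-blocked libraries, so the number of calls is a description.

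Not every Gr gene could be measured with these counts. Of the 60 Gr rows, 24 were listed at 0 in all libraries. Among them were Gr64b and Gr64c, which share 2858 exon bases on their strand, Gr64d and Gr64e, which share 2882, and Gr10a, which shares 2819 with Or10a. Reads in exons shared by 2 genes can be set aside as ambiguous, and 1.91% to 1.99% of all counts per library were in the row for ambiguous reads. A listing at 0 for these 5 genes therefore says nothing of their transcripts. Of the 8 genes of the sugar receptor clade, Gr64a was the other one tested, with 5.06 ± 0.859 and 4.63 ± 0.703 CPM, and it did not pass (edgeR adjusted p = 0.636), so 0 of 3 tested members were called. Of the 5 bitter receptors of most bitter taste neurons, 3 of 4 tested were higher, against 14.3% of all tested genes. Of these 3, Gr33a and Gr39a had passed the filter only through the PCD-blocked libraries. The sugar and bitter lists were chosen with earlier results of these data known, so their counts are descriptions. Gr89a had 1 and 2 counts.

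Of the other genes linked to taste, few passed the filter and could be tested, and the calls below stand beside 14.3% of all tested genes called higher. Of 22 taste-related ionotropic receptor genes, 3 were tested and 1, Ir56a, was higher, going from 1.71 ± 0.190 to 5.99 ± 0.291 CPM (log2 fold change 1.8 ± 0.17 SE, edgeR adjusted p = 9.34e-05). The median log2 fold change of the tested members was -0.03, against 0.00 for all tested genes. Of 6 taste channels of the pickpocket family, 4 were tested, and ppk29, a subunit in pheromone-sensing neurons, was higher by 0.76 (edgeR adjusted p = 0.0456), a call lost without pair 1 (0.177), without pair 2 (0.194), with no block (0.112) and with DESeq2 (0.409), with 0.0356 as the lowest value over 10 alternatives. The median of this list was -0.05. Poxn, the determinant of taste bristle identity, had 2 and 3 counts in the groups. Of the regulators of sexual identity, dsx, the doublesex gene, was higher by 0.32 (edgeR adjusted p = 0.0102), lost without pair 2 (0.117), without pair 3 (0.0564) and with DESeq2 (0.164; the lowest of 10 alternatives was 0.00435), and fru, the fruitless gene, did not pass (0.163).

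Each of the 10 receptors has 1 nearest gene on each side, leaving out genes that overlap it. Of these 20 neighbours 12 were tested, with 1 higher, 2 lower and 9 that did not pass, a share of calls near that of all tested genes (14.3% higher and 13.3% lower). The higher one was Rcd5, next to Gr64f, at 0.21 on the log2 scale (edgeR adjusted p = 0.0107), a call lost without pair 2 (0.0785) and with DESeq2 (0.229) in a range from 0.00428. The lower ones were crc, next to Gr39a, at -0.23 (edgeR adjusted p = 0.000774), and santa-maria, a carotenoid transport gene next to Gr28a, at -0.32 (edgeR adjusted p = 0.000459), the latter lost with no block (0.0589) in a range from 1.94e-05. Neither neighbour of Gr43a passed, nor did CG31760, the 1 tested neighbour of Gr33a, and no neighbour of Gr32a was tested. Among genes that overlap a receptor, CG11593 at Gr64f was higher, as given above. The span of loaf, on the opposite strand, overlaps that of Gr68a with no shared exon bases, and loaf was higher by 0.31 (log2, edgeR adjusted p = 0.00718). Dhx15, CG6230 and Mondo did not pass, and asRNA:CR44958 was not tested.

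The genes whose profile over the 6 libraries was most like that of Gr43a were found by the Euclidean distance between centred log2 CPM profiles, among 5858 tested genes with a symbol outside the CG and CR series. They were Dop2R, a D2-like dopamine receptor gene, at a distance of 0.507, BomT2, a gene for a secreted immune peptide (0.712), Or19a, an odorant receptor gene (0.890), and ppk24, of the pickpocket channel family (0.911). Dop2R went from 1.64 ± 0.549 to 20.9 ± 0.594 CPM, BomT2 from 0.269 ± 0.0659 to 3.44 ± 0.902, Or19a from 0.731 ± 0.259 to 7.91 ± 0.624, and ppk24 from 0.135 ± 0.0329 to 1.36 ± 0.0952 (SD, n = 3). The measure is a description of 6 libraries and rests mainly on the difference between the groups, which all of these genes share with Gr43a.

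The libraries held 15588725 to 17808516 gene counts, so that 3 counts correspond to 0.168 to 0.191 CPM. The antennal markers Orco, the odorant co-receptor, and Obp83a, an odorant-binding protein gene, had 3012 and 9856 CPM in controls. Of the 8 antennal markers tested, Ir25a was higher (0.45), lush (-0.39), Or22a (-0.49), Ir64a (-0.23) and Ir8a (-0.11) were lower, and Orco, Obp83a and Obp83b did not pass (log2 fold changes, edgeR). These calls and those of the lists below stand beside 14.3% of all tested genes called higher and 13.3% lower. Odorant receptors of the maxillary palp, an olfactory organ beside the proboscis, summed to 29.7 to 31.5 CPM in controls over 7 genes. In PCD-blocked antennae the sum was 24.3 to 29.2 CPM, and none of the genes was at 0 in all libraries. Of that list Or46a was lower (-0.39, edgeR adjusted p = 0.00316, with 0.0507 in DESeq2 and 0.000565 as the lowest value over 10 alternatives) and none was higher, and the 6 others summed to 4.2 to 5.96 and 5.54 to 8.14 CPM. Eye, muscle and hemocyte lists of 8, 5 and 4 genes summed to 307 to 334, 32.1 to 67.8 and 19.97 to 24.2 CPM in controls. In PCD-blocked antennae the sums were 311 to 346, 42.2 to 85.2 and 22.0 to 28.6 CPM. None of these genes was at 0 in all libraries, and there was 1 call, trp (higher by 1.28). In controls norpA alone had 297 to 326 CPM of the eye sum, sls 27.3 to 44.8 CPM of the muscle sum and Hml 16.9 to 19.4 CPM of the hemocyte sum. With PCD blocked norpA, sls and Hml had 295 to 328, 41.5 to 55.6 and 19.0 to 23.7 CPM. The muscle gene Mhc ran from 0 to 21.6 CPM among PCD-blocked libraries. The rhodopsin gene ninaE had 6 and 7 counts in the groups. The 5 fat body genes summed to 44.8 to 177 CPM in controls and 68.5 to 80.2 in PCD-blocked antennae. Of these, apolpp was higher by 1.44 and the yolk protein genes Yp2 and Yp3 were lower (log2 fold changes -1.59 and -2.04). The calls of Yp2 and Yp3 were lost without pair 1, without pair 2 and with DESeq2. Summed together, the germline genes vas and osk had 8 counts in controls and 7 in PCD-blocked antennae. The part of other cells in the receptor results was not tested. The eye colour gene w, a common marker of fly transgenes, went from 60.0 CPM to 1918 CPM with PCD blocked.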

How the data were processed

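Poly(A) RNA of female antennae was sequenced as directional libraries, per the labels' protocols. The deposited values are whole-number read counts per gene, 1 file per library. The genome build BDGP6 and the tools HTSeq 0.9.1, STAR 2.5.3a and cutadapt 1.8 come from the submitters' processing notes, which give no settings; annotation release and strand use in counting are not given there. Each file has 17698 gene rows, and 5 rows that name no gene (11.9% to 13.5% of counts) were left out. Names, coordinates (from 1), exon lengths and overlaps came from the Ensembl annotation of BDGP6.

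Genes were tested with edgeR 4.0.16 in R 4.3.3 (quasi-likelihood test, TMM scaling, default expression filter by group), with Benjamini-Hochberg adjustment over 9181 genes and a threshold of 0.05. SEs and 95% intervals derive from the fold change and test statistic. The sample pair was a block because the labels name the pairs and the design text calls the study paired. Deviations from the group means correlated by 0.0413, 0.258 and -0.218 within pairs 1, 2 and 3. Replicates, called biological in the design text, differed beyond sampling noise (chi-square per degree of freedom 4.06 to 10.4). Intervals of ratios are exact binomial (Clopper-Pearson, SciPy 1.17.1) at 95%, and a count of 0 was taken to allow 3 counts.

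Alternatives were median-of-ratios size factors, plain library totals, DESeq2 1.42.0, limma-voom 3.58.1, no expression filter, at least 1 CPM in 3 libraries, no block, and each pair left out. The edgeR script was tested on simulated data. The receptors and gene lists were chosen with earlier results of these data known. Named genes were the 10 receptors, other Gr genes past the threshold, Gr10a, Gr21a, Gr28b and Gr63a, up to 4 called genes per list, called neighbours, the 4 genes most like Gr43a, w and Orco; others were chosen after their values were seen.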

Additional observations from a re-analysis of the deposited data

How the results depend on the processing

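Of 337 values of named genes under the 10 alternatives, 311 kept their direction and their side of the threshold, 25 lost the call and 1 turned its sign, Gr66a, from 0.07 to -0.03 without pair 3 (0.14 without pair 2). Gr33a, Gr39a and Gr98b did not pass the filter of at least 1 CPM in 3 libraries. They had no value there, so these are not counted among the lost calls. Among the 10 receptors, Gr43a passed in all 10 alternatives, with log2 fold changes of 3.38 to 3.80 and a highest adjusted p = 0.000181 (edgeR, limma or DESeq2). The number of receptors called higher was 4 with other scaling, limma-voom, no expression filter or no replicate block, and 3 to 4 with a pair left out. It was 1 with DESeq2, and 2 with at least 1 CPM in 3 libraries, a filter that Gr33a and Gr39a did not pass. None was lower throughout. Of all genes, 1306 were higher with median-of-ratios factors, 1704 with plain totals, 1331 with limma-voom, 1287 with no filter and 1295 with at least 1 CPM in 3 libraries. With the default filter Gr33a and Gr39a entered only through the PCD-blocked libraries, so these numbers of receptors are descriptions. Over all genes, DESeq2 called 653 higher and 662 lower, and leaving out a pair gave 753 to 1065 higher and 728 to 1006 lower, fewest without pair 2. Without the pair as a block the counts were 1124 and 1010. The cause of these differences was not tested. With 8 control counts each, Gr33a and Gr39a have wide intervals, and depth does not resolve Gr5a, Gr28a or Gr68a.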
